A study of Mus musculus with 9 samples.

Results

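The antimicrobial defence genes of the epidermis were followed as 10 genes out of the 38203 in the table of gene expression, each found by its symbol with 1 row: Slpi, Defb1, Defb4, Defb6, Defb14, Lcn2, Pglyrp1, Pglyrp3, Pglyrp4 and Camp. The list was drawn up with the levels of these genes in DKO and WT epidermis already known, so every comparison with DKO below describes the choice and is not evidence for it. RNA came from the epidermis of individual mouse embryos at E18.5, separated from the dermis with trypsin, in 9 libraries of 4 genotypes. WT (2 libraries) carried both genes, KO (3 libraries) was Esrp1-/- with Esrp2 intact, KH (2 libraries) was Esrp1-/- with 1 working allele of Esrp2 (Esrp2+/-), and DKO (2 libraries) was Esrp1-/- and Esrp2-/-. All alleles were germline alleles derived from targeted embryonic stem cells, so every tissue of a mutant embryo lacked the gene: the Esrp1 allele lacks a group of internal exons, and in the Esrp2 allele the gene is replaced by LacZ and a neomycin cassette. The mice were on a mixed C57BL6/129Sv background crossed back towards C57BL6. The sample labels call the controls wild type for both genes, whereas the text on RNA extraction lists control embryos as Esrp1+/+ and Esrp2-/-. The controls are called WT here, and their Esrp2 level, given below, goes with the labels and against that text.

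Esrp1 and Esrp2 are epithelial proteins that bind RNA and set the splicing of transcripts in epithelial cells. Keratinocytes also guard the body surface with secreted proteins that kill or starve microbes. Beta-defensins are small cationic peptides that disrupt microbial membranes, and some of them attract immune cells. Slpi inhibits serine proteases such as neutrophil elastase and is itself antimicrobial, Lcn2 withholds iron by binding bacterial siderophores, the Pglyrp proteins bind the bacterial wall polymer peptidoglycan, and Camp is the precursor of the mouse cathelicidin peptide. Some of these genes are expressed steadily by resting skin, and others are induced by wounding, microbes or inflammatory cytokines.

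The targeted genes were read first, in FPKM, which divides the fragments of a gene by its exon length and by a measure of library size. Esrp1 stood at 119 and 142 FPKM in WT and between 18.2 and 55.1 in the other 7 libraries, which lack only part of the gene. Esrp2 stood at 118 and 136 FPKM in WT, between 38.6 and 131 FPKM in KO and KH, and at 0.0843 and 0.0463 FPKM in DKO, so the WT libraries were not Esrp2-/-. The tissue carried its defining keratinocyte transcripts in every library, with Krt14 between 1722 and 3692 FPKM and Krt10 between 10810 and 35420 FPKM. All 3 KO libraries (76.2 to 180 FPKM) and WT replicate 2 (111 FPKM) contained the female transcript Xist, which did not exceed 0.178 FPKM in the other 5, so the sexes were not balanced between genotypes and no DKO library matched a KO library in this respect. FPKM gives no read counts, but low values fell on steps whose size reflects depth. By these steps KO replicate 3 was 3.97 times and WT replicate 2 was 2.12 times as deep as DKO replicate 1, the shallowest library, and the other 6 were 1.12 to 1.75 times as deep. A lower number of expressing cells and less RNA per cell cannot be told apart in these bulk samples.

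**Figure D1:**
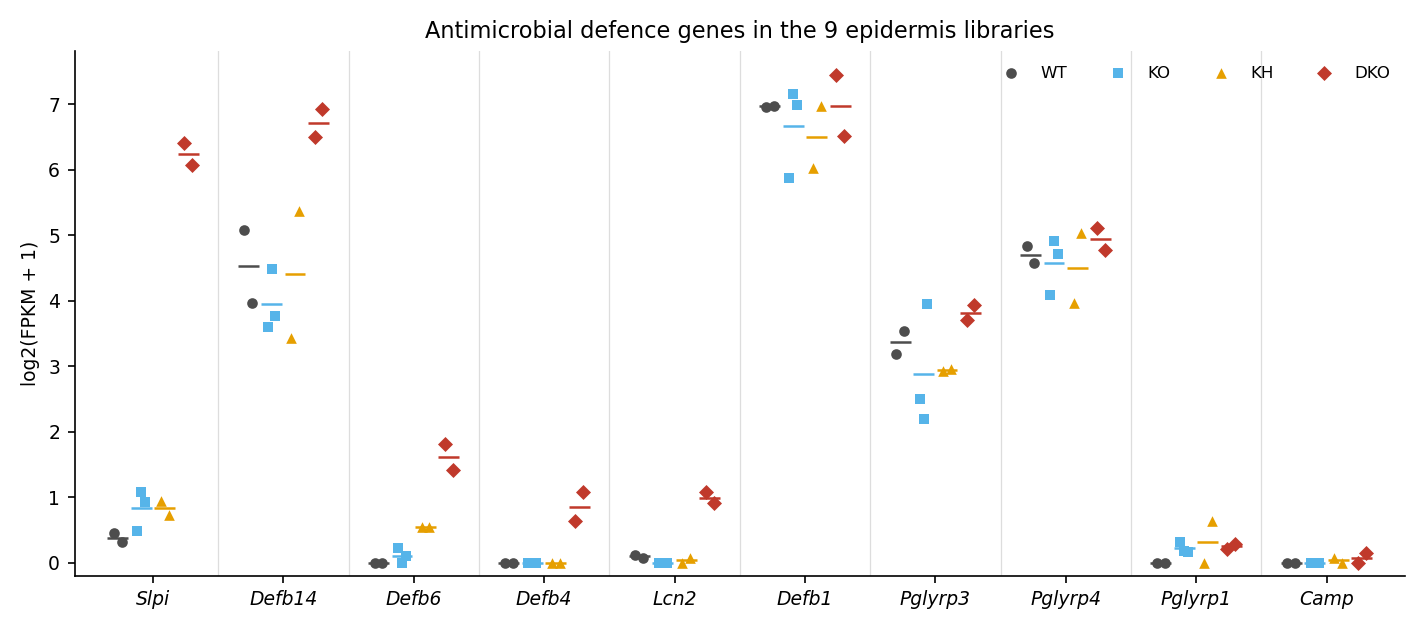
Level of each of the 10 genes in each library as log2(FPKM + 1), with 1 point per library, a short line at the mean of each genotype, and WT (n = 2), KO (n = 3), KH (n = 2) and DKO (n = 2) from left to right. Both DKO points lie above the other 7 for Slpi, Defb14, Defb6, Defb4 and Lcn2, whereas for Defb1 DKO replicate 1 is the highest point and DKO replicate 2 lies among those of the other genotypes.

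The 10 genes spanned a wide range of levels. Defb1, Defb14 and Pglyrp4 averaged over 10 FPKM in every genotype, and Defb1 was the most abundant in 8 of the 9 libraries. Defb4, Lcn2, Pglyrp1 and Camp averaged under 1 FPKM in every genotype. The summed level of the 10 genes was 397 and 323 FPKM in the DKO libraries and between 90.5 and 205 FPKM in the other 7, without overlap. Its makeup differed as well. Slpi made up 21.2% and 20.6% of the sum in DKO and between 0.140% and 0.961% in the other 7 libraries. Defb14 made up 22.6% and 37.6% in DKO and between 7.03% and 19.6% elsewhere, and the share of Defb1 was 43.7% and 27.9% in DKO against 60.8% to 72.1%.

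**Figure D2:**
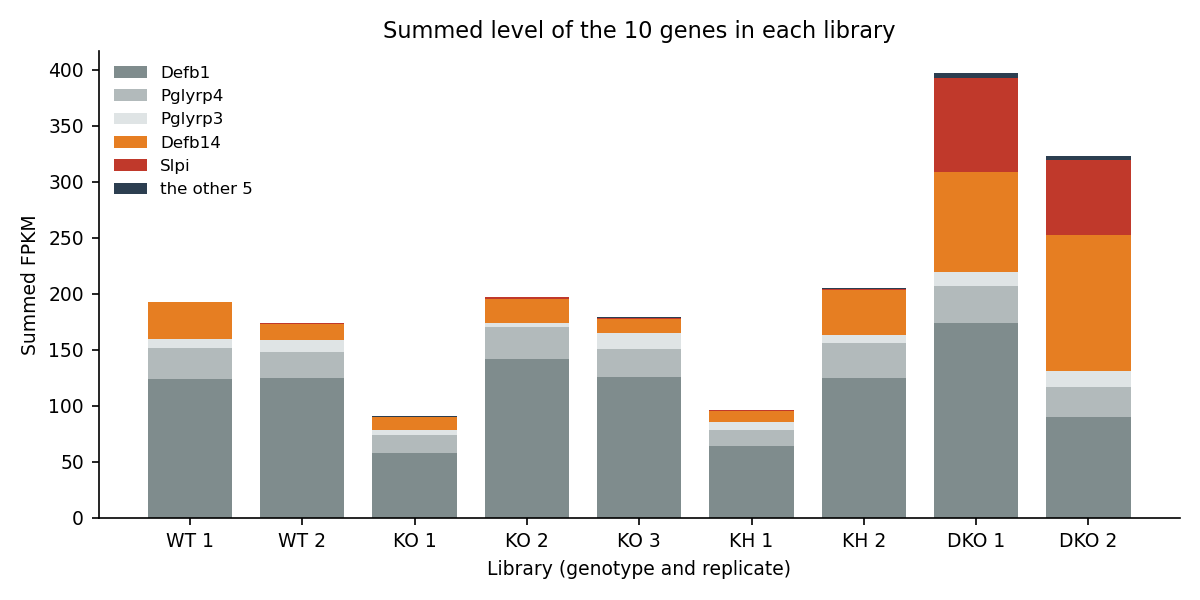
Summed FPKM of the 10 genes in each library, stacked by gene, with Defb4, Defb6, Lcn2, Pglyrp1 and Camp drawn together as the other 5. The DKO bars reach 397 and 323 FPKM, and the Slpi segment, which is hardly visible in the other 7 bars, takes 21.2% and 20.6% of them.

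Slpi, the inhibitor of neutrophil elastase, showed the greatest difference among the 10 genes. It is on chromosome 2, 164354070 to 164389095 on the minus strand of GRCm38, the build of the table. Slpi was at 84.0 and 66.4 FPKM in DKO, 0.927 and 0.651 FPKM in KH, 0.394, 1.12 and 0.894 FPKM in KO, and 0.363 and 0.243 FPKM in WT. Both DKO libraries were far above all others, and the remaining genotypes stayed near 1 FPKM or lower. The mean was 75.2 ± 12.4 FPKM (SD, n = 2) in DKO and 0.303 ± 0.0854 FPKM (SD, n = 2) in WT, a ratio of 248 and a difference of 5.86 on the log2(FPKM + 1) scale (standard error 0.25). Against KO the ratio was 93.8, and against KH it was 95.3. The Slpi locus spans 3 annotated transcripts whose start sites lie up to 33.0 kb apart, and the gene values do not tell which was used.

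The lower genotypes of Slpi are described next, although the WT libraries they are set against were part of what was known when the genes were chosen. All 5 KO and KH libraries lay above both WT libraries, the lowest being KO replicate 1 at 0.394 FPKM against 0.363 FPKM in WT replicate 1. On the log2(FPKM + 1) scale KO exceeded WT by 0.45 (standard error 0.23, adjusted p = 0.853 by limma, adjusted by Benjamini-Hochberg over all genes tested). The excess of KH over WT was 0.45 as well (standard error 0.25, adjusted p = 0.98 by limma), so neither passed the test. Of the 9 tested genes, Slpi alone had all 7 libraries lacking Esrp1 above both WT libraries, an arrangement held by 5.07% of all genes tested, from which nothing is read because it counts the DKO and WT libraries behind the choice. KH and KO had close means of 0.789 ± 0.195 FPKM (SD, n = 2) and 0.801 ± 0.370 FPKM (SD, n = 3). The part of embryo sex in these levels was not tested.

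The beta-defensins on chromosome 8 formed the next group. Defb14, Defb4 and Defb6 are neighbours within a cluster that also holds Defb3, and the 4 genes together cover 100.9 kb (19194357 to 19295291, all on the plus strand). Defb14, the mouse counterpart of an inducible human skin defensin, is annotated at 19194357 to 19195212. It was at 89.5 and 122 FPKM in DKO, 9.83 and 40.2 FPKM in KH, 11.1, 21.5 and 12.6 FPKM in KO, and 32.8 and 14.7 FPKM in WT. Both DKO libraries were above the other 7, while the libraries of each other genotype were spread widely, and KH replicate 2 was the highest of the 7. The mean was 106 ± 22.6 FPKM (SD, n = 2) in DKO and 23.7 ± 12.8 FPKM (SD, n = 2) in WT, a ratio of 4.45. The difference of 2.19 on the log2(FPKM + 1) scale (standard error 0.62) did not meet the genome-wide call.

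Defb6 (19225478 to 19228209) was low everywhere and highest in DKO. It was at 2.51 and 1.66 FPKM in DKO, 0.453 and 0.460 FPKM in KH, 0.166, 0 and 0.0665 FPKM in KO, and listed at 0 in both WT libraries. The DKO libraries were above KH, and both KH libraries were above every KO and WT library. Its mean level in DKO was 4.57 times that in KH, and no ratio is given to KO or WT, where 1 and 2 libraries were listed at 0. The difference from WT was 1.61 on the log2(FPKM + 1) scale (standard error 0.14).

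Defb4 (19198706 to 19201545) had 0.546 and 1.12 FPKM in DKO and was listed at 0 in the other 7 libraries. Those 7 included KO replicate 3 and WT replicate 2, the deepest libraries. The difference from WT was 0.86 on the log2(FPKM + 1) scale (standard error 0.13), and its call is the least stable of the set, since it was lost without WT replicate 1, WT replicate 2, KO replicate 2 or KH replicate 1. Beta-defensin genes are close copies of each other, and how the authors' counting shared fragments between copies is uncertain, so the split between neighbours may be less exact than their sum.

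Defb3, which lies between 19293360 and 19295291 and was not in the list of 10, had 2.53 and 3.12 FPKM in DKO and was listed at 0 in the other 7 libraries. The difference from WT was 1.93 on the log2(FPKM + 1) scale (standard error 0.10). It met the call, but Defb3, like Defb4, entered the test only through its DKO level, so the call is no separate support. Within 500 kb of Defb14 the table holds 35 genes, of which 12 were tested, and in 4 of these, the 4 defensins, both DKO libraries were above the other 7. Over all genes tested the share with this arrangement was 5.33%, and nothing is read from the count, since 3 of the 4 were chosen with their DKO levels known and Defb4 and Defb3 passed the filter only through DKO. The other 8 tested genes in the window included Agpat5, a lipid acyltransferase, at 138 and 48.9 FPKM in DKO and 84.9 to 236 FPKM in the other libraries. Of the 43 Defb rows in the table, 6 were tested, these 4 with Defb1 and Defb2.

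**Figure D3:**
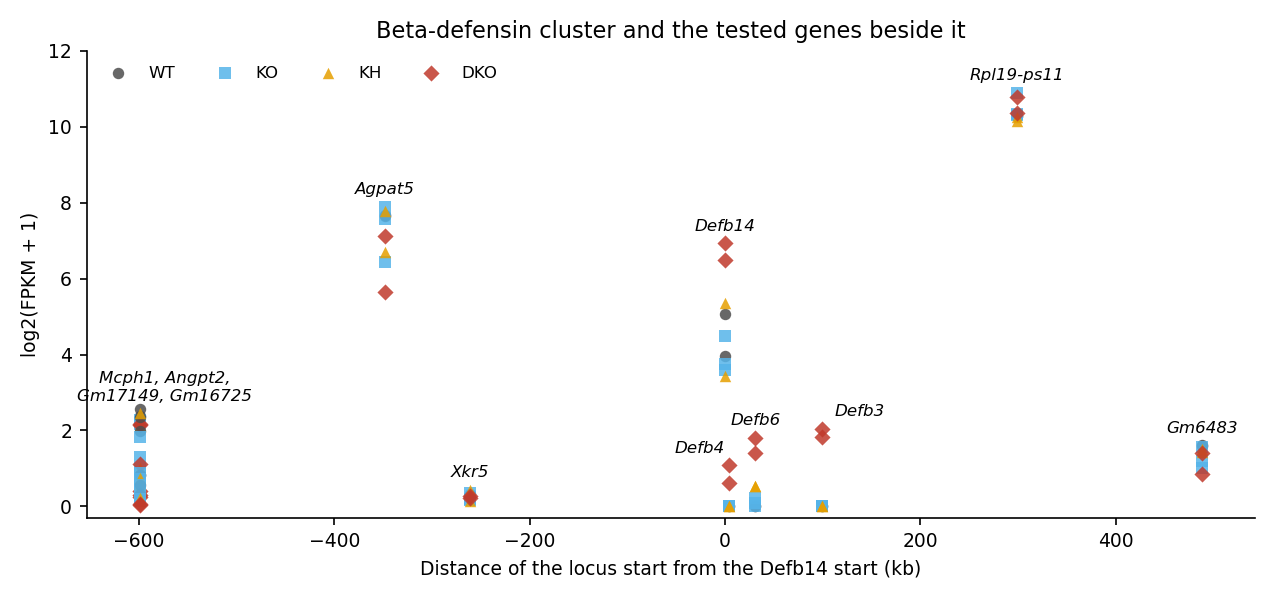
Level of the 12 tested genes within 500 kb of Defb14 as log2(FPKM + 1) against the distance of the locus start from that of Defb14 in kb, with 1 point per library coloured by genotype (WT n = 2, KO n = 3, KH n = 2, DKO n = 2). The DKO points top the column of each of the 4 defensins and of none of the other 8 genes, of which 4 share 1 locus at the left edge.

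The sequences before the starts of Slpi, Defb6 and Defb3 are shown because these genes were near 0 outside DKO and the defensin pair allows a comparison between neighbours. They are the 250 bases before the RefSeq start on the strand of the gene (GRCm38.p6), and of the 10 genes, 5 had an entry in the RefSeq table used (Slpi, Defb6, Lcn2, Pglyrp1 and Camp). The stretch of Lcn2, also near 0 outside DKO, is not shown because 197 of its 250 bases lie in GENCODE exons. The Slpi stretch lies within the longest GENCODE transcript of Slpi but in none of its exons, and the Defb3 stretch holds 1 exon base. Capitals mark matches on either strand to 6 motifs. The letters searched were TTGCNNAA for C/EBP factors, TGANTCA for AP-1, TTCNNNGAA for STAT factors, AACNGGTT for Grhl factors, GGNNNTTCC for NF-kB and TATATAA for the TATA box, and the letters for the last pair were set after the sequences had been seen.
Slpi, chr2:164356508-164356757, minus strand: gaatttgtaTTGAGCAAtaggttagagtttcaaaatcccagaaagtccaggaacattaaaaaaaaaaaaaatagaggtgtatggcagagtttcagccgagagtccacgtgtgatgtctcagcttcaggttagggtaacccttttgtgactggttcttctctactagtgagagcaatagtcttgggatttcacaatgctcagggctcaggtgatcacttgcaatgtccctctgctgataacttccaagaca
Defb6, chr8:19225228-19225477, plus strand: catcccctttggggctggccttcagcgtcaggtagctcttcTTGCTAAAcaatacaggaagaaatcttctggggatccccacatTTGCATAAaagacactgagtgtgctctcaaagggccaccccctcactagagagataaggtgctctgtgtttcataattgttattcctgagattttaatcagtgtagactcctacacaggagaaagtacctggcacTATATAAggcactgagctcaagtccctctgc
Defb3, chr8:19293111-19293360, plus strand: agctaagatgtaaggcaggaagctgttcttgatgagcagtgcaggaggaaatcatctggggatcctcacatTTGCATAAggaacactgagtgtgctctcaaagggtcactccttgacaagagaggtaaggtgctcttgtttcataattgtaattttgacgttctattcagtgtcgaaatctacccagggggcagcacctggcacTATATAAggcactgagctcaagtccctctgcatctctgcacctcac
The Defb6 and Defb3 stretches were identical at 192 of 250 aligned bases (76.8%), whereas Slpi shared 47.2% with Defb6 and 54.8% with Defb3. The longest run shared by the defensins was 40 bases and holds the TATA box match, 31 bases before the start of Defb6 and 46 bases before that of Defb3. Both also hold the same match to the C/EBP letters, 166 and 179 bases before the start, and Defb6 holds another at 209 bases. The Slpi stretch held 1 match, to the C/EBP letters, 241 bases before the start. No capitals overlap in these 3 stretches, and the other letters searched were not in them. Of the stretches not shown, Lcn2 held 1 match to the C/EBP letters, 216 bases before the start, and Pglyrp1 held 2 to the NF-kB letters. Of the 32851 promoter stretches of this length in the RefSeq table, 9.56% held the C/EBP letters, 3.04% the TATA box letters, 15.7% the NF-kB letters, 6.75% the AP-1 letters, 7.02% the STAT letters and 1.79% the Grhl letters.

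Lcn2, the siderophore-binding protein, is on chromosome 2, 32384633 to 32388252 on the minus strand. It was at 1.12 and 0.873 FPKM in DKO, 0 and 0.0534 FPKM in KH, listed at 0 in all 3 KO libraries, and at 0.0861 and 0.0502 FPKM in WT. Both DKO libraries were above the other 7, although a level near 1 FPKM is low beside Slpi or Defb14. The ratio of DKO to WT was 14.6, and the difference was 0.90 on the log2(FPKM + 1) scale (standard error 0.09), a scale that understates ratios at such levels. Like Defb4, Lcn2 averaged over 0.1 FPKM in DKO and in no other genotype, so both were tested only through their DKO level.

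In the comparison of DKO with WT, 4 of the 9 tested genes met the call, set at 0.05 for the adjusted p together with a ratio of average FPKM above 2 (Slpi, Defb6, Lcn2 and Defb4), all higher in DKO, where 0.479% of all genes tested were called higher and 0.249% lower. The same 4 met it against KO, with 0.521% of all genes called higher, and against KH, with 0.385%. These 3 comparisons share the DKO libraries, and nothing is read from the counts, since the genes were chosen on this contrast. Against KH the count fell to 2 (Lcn2 and Slpi) without WT replicate 1, WT replicate 2, KO replicate 3, KH replicate 1 or KH replicate 2. In 5 of the 9 tested genes, Defb14 being the fifth, both DKO libraries were above the other 7, beside 5.33% of all genes tested, and this too restates the choice.

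**Figure D4:**
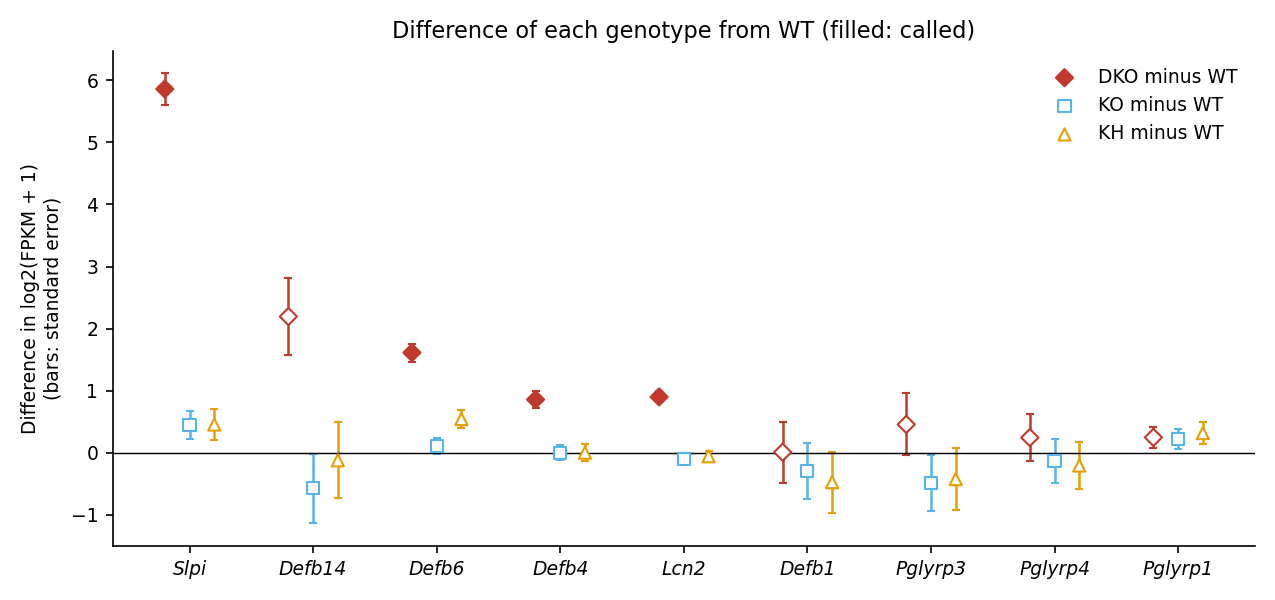
Difference of DKO, KO and KH from WT for the 9 tested genes in log2(FPKM + 1), with the standard error of the limma fit as bars and filled symbols where the call was met. The 4 filled symbols are DKO minus WT for Slpi, Defb6, Defb4 and Lcn2, and no KO or KH symbol is filled.

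The peptidoglycan recognition proteins and Defb1 were not called in any comparison. Defb1, a defensin that epithelia express without induction, lies 2.48 Mb beyond the cluster on chromosome 8 (21776599 to 21795185). It had 173 and 90.2 FPKM in DKO, 64.1 and 125 FPKM in KH, 57.9, 142 and 126 FPKM in KO, and 124 and 125 FPKM in WT. The DKO libraries lay on either side of WT, and the difference was 0.01 on the log2(FPKM + 1) scale (standard error 0.49). Pglyrp4 (chromosome 3, 90726906 to 90741517) had 33.7 and 26.5 FPKM in DKO, 14.6 and 31.8 FPKM in KH, 16.0, 29.2 and 25.2 FPKM in KO, and 27.5 and 22.9 FPKM in WT. Its DKO values overlapped those of every other genotype, with a difference from WT of 0.24 on the log2(FPKM + 1) scale (standard error 0.38).

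KO replicate 1 and KH replicate 1 were the lowest libraries for both Defb1 and Pglyrp4. They also had the lowest summed FPKM over all genes, 734747 and 713318 against 771857 to 1130713 in the other 7, and low levels of Lor, the cornified envelope protein loricrin, at 2960 and 1973 FPKM, next to 2645 FPKM in DKO replicate 2 and 4398 to 7007 FPKM in the other 6. The part of scaling or of the share of granular cells in the Defb1 and Pglyrp4 values was not tested.

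Pglyrp3 (chromosome 3, 92014583 to 92031582) had 12.01 and 14.3 FPKM in DKO, 6.60 and 6.74 FPKM in KH, 4.65, 3.55 and 14.5 FPKM in KO, and 8.15 and 10.6 FPKM in WT. DKO was above both WT and both KH libraries, but KO replicate 3 was the highest library of all. The difference from WT was 0.46 on the log2(FPKM + 1) scale (standard error 0.50). The gene model Gm6097 overlaps this locus, and the split of reads between them is uncertain. Pglyrp1 (chromosome 7, 18871331 to 18890459) had 0.153 and 0.220 FPKM in DKO, 0 and 0.549 FPKM in KH, 0.243, 0.134 and 0.117 FPKM in KO, and was listed at 0 in both WT libraries. The highest value was in KH replicate 2, and no genotype without Esrp1 stood apart from the others. Camp (chromosome 9, 109847379 to 109849617) was listed at 0 in 7 libraries, at 0.105 FPKM in DKO replicate 2 and at 0.0529 FPKM in KH replicate 1, and was not tested.

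Comparisons without DKO asked whether the loss of Esrp1 alone, or with 1 allele of Esrp2, changed these genes. The WT levels were known when the genes were chosen, so that KH against KO is the comparison that used neither genotype of the choice. None of the 9 tested genes was called in KO against WT by limma, none had an unadjusted p under 0.05, and 0.0296% of all genes were called. Defb4 and Lcn2 count little here, since both were tested only through DKO and Defb4 was listed at 0 in every library compared. In KH against WT the count was also 0 with 1 gene at an unadjusted p under 0.05, again with 0.0296% of all genes called. That gene was Defb6, with a difference of 0.54 on the log2(FPKM + 1) scale (standard error 0.14, adjusted p = 0.98 by limma). Between KH and KO none of the 9 was called, as was no gene of the 16897 tested, of which 185 had an unadjusted p under 0.05. Defb6 was the 1 member among these, higher in KH by 0.44 on the log2(FPKM + 1) scale (standard error 0.13, adjusted p = 1 by limma). The counts of 0 were found under all 20 alternative settings as well. Defb14 differed from WT by -0.57 on the same scale in KO, with a standard error of 0.56, and by -0.12 in KH, with an error of 0.61. The values for Defb1 were -0.30 with an error of 0.45 in KO, and -0.47 with an error of 0.49 in KH. With errors this wide, differences of that size were not detectable in these libraries.

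Among 31 other antimicrobial effectors, listed with earlier results of these data known, 18 were tested and 4 were called higher in DKO than in WT, none lower, where 0.479% of all genes tested were called higher and 0.249% lower. The median difference was 0.32 on the log2(FPKM + 1) scale against 0.02 over all genes tested, and Defb3 was tested only through its DKO level. Beside Defb3 they were Ccl20, S100a8 and S100a9. Ccl20, a chemokine that draws dendritic and T cells and has antimicrobial activity, had 48.1 and 38.8 FPKM in DKO and between 0.119 and 0.752 FPKM in the other 7 libraries. Its difference from WT was 4.89 on the log2(FPKM + 1) scale (standard error 0.23, adjusted p = 3.49e-05 by limma). S100a8 and S100a9 form calprotectin, which starves microbes of metal ions. S100a8 had 15.3 and 15.2 FPKM in DKO and between 0 and 1.30 FPKM elsewhere (difference 3.31, adjusted p = 0.00343), and S100a9 had 40.5 and 36.9 FPKM in DKO and between 2.24 and 8.38 FPKM elsewhere (difference 3.27, adjusted p = 0.00788; limma with Benjamini-Hochberg adjustment for both). Without DKO replicate 1 the count fell to 2 (Ccl20 and Defb3). The S100a9 call was also lost without WT replicate 2, without DKO replicate 2 and with the replicate block, and the S100a8 call was lost with a pseudocount of 0.1. Adm, the vasodilator peptide adrenomedullin, which is also antimicrobial, was called with only 2 genotypes fitted and with arrayWeights and was lower in DKO, averaging 1.95 FPKM against 6.39 FPKM in WT, as it also was in KO (2.18 FPKM) and KH (2.26 FPKM). In all, 7 of the 31 genes were listed at 0 in every library.

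Of 42 genes that sense microbes or induce these effectors, such as Toll-like receptors, NF-kB subunits and cytokines with their receptors, 35 were tested. The count called was 1, Il1b, higher in DKO, beside the 0.479% of all genes called higher. The median difference between DKO and WT was 0.03 on the log2(FPKM + 1) scale, next to 0.02 over all genes tested. Il1b, the secreted cytokine interleukin 1 beta, had 6.99 and 4.73 FPKM in DKO and between 0.203 and 1.15 FPKM in the other 7 libraries, a difference from WT of 2.34 on the log2(FPKM + 1) scale (standard error 0.23, adjusted p = 0.00224 by limma). This call was lost without WT replicate 2. Il17a, Il22 and Cxcl5 were listed at 0 in all 9 libraries.

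**Figure D5:**
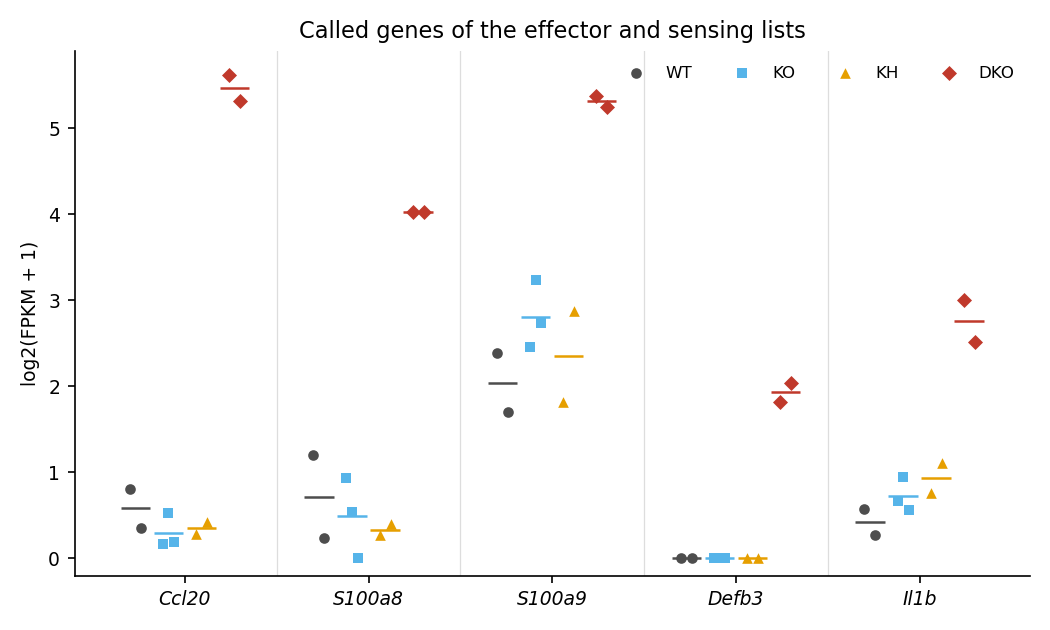
Level of the 5 called genes of the effector and sensing lists as log2(FPKM + 1), with 1 point per library, lines at the genotype means, and WT (n = 2), KO (n = 3), KH (n = 2) and DKO (n = 2) from left to right. Both DKO points lie above the other 7 for every gene, and Defb3 is at 0 in those 7.

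Slpi, Lcn2, Camp, S100a8 and S100a9 are also made by neutrophils, so markers of other cells were read beside them. The neutrophil markers summed to 1.30 and 1.80 FPKM in DKO and between 0.220 and 0.814 FPKM in the other 7 libraries. Of the 10 listed, Elane, Mpo, Ctsg and Ly6g were listed at 0 in every library, and the other 6 were at most 0.772 FPKM in any library. The 4 that were tested averaged higher in DKO than in WT and none was called. Cxcr2, a receptor for neutrophil chemokines, was at 0.273 and 0.249 FPKM in DKO and at most 0.0897 FPKM elsewhere. It averaged over 0.1 FPKM in DKO and in no other genotype, so it was tested only through its DKO level. An arrangement with both DKO libraries above the other 7 was held by 5.33% of all genes tested, and nothing is read from it. Prtn3, Csf3r and Retnlg overlapped between DKO and the other libraries. Macrophage and dendritic markers summed to 35.9 and 18.1 FPKM in DKO and between 11.9 and 45.6 FPKM elsewhere. Dermal fibroblast markers summed to 44.2 and 75.3 FPKM in DKO against 50.7 to 150 FPKM. Nearly all of this was Dcn, at 42.3 and 72.8 FPKM in DKO and 48.9 to 136 FPKM elsewhere. Each other fibroblast marker was at most 5.39 FPKM, the Col3a1 level in KO replicate 1, so the sum describes 1 gene rather than the list. Red blood cell markers varied most, at 431 and 1520 FPKM in DKO and 15.4 to 624 FPKM in the other libraries. Epidermal keratinocyte markers summed to 52040 and 37070 FPKM in DKO and 33490 to 78400 FPKM elsewhere. Markers of internal epithelia summed to 72.2 and 68.5 FPKM in DKO and 43.1 to 58.4 FPKM elsewhere. Most of this was Epcam, at 50.5 and 50.8 FPKM in DKO and 33.6 to 47.8 FPKM elsewhere. From this list Krt7, a keratin of simple epithelia, was called higher in DKO than in KO (13.0 and 9.53 FPKM against 3.05 to 3.60 FPKM), beside 0.521% of all genes. Krt19 went the other way, averaging 0.311 FPKM in DKO and 0.463 FPKM in KO. Krt8, Krt18, Krt20 and Muc1 overlapped between DKO and the other libraries. For Krt4, tested only through its DKO level, and for Krt7 and Epcam both DKO libraries were above the other 7, beside 5.33% of all genes tested. None of the 6 marker lists had a call in DKO against WT, where with 0.479% of all genes called higher and 0.249% lower few calls would be found in lists this short, and the part of other cells in the levels above was otherwise not tested.

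The genes whose levels over the 9 libraries were most like those of Slpi were Isx (Pearson r = 0.996), Gm9782 (0.996), Lce3b (0.995), Spink12 (0.994) and Slc5a8 (0.994), out of 12739 genes compared on the log2(FPKM + 1) scale. Gm9782 had 95.8 and 104 FPKM in DKO and no more than 0.943 FPKM in the other libraries, and Lce3b, which encodes a cornified envelope protein, had 5.25 and 4.71 FPKM in DKO and was listed at 0 elsewhere. Defb14 had other neighbours, namely Avil (0.982), Sprr1a (0.977), Gm128 (0.973), Ptk2b (0.970) and Iffo2 (0.963). Sprr1a, a cornified envelope precursor, had 178 and 209 FPKM in DKO, 8.59 and 43.5 FPKM in KH, 8.38, 32.3 and 16.5 FPKM in KO, and 29.6 and 20.7 FPKM in WT. As with Defb14, KH replicate 2 was the highest of the 7 libraries outside DKO. These correlations describe the 9 libraries, which all genes share, and the DKO libraries were the highest for all 10 of these genes. The 5 genes named for Slpi averaged at least 1 FPKM in DKO and in no other genotype, so they entered the comparison only through DKO. Their r values mainly set the DKO libraries apart from the other 7, and nothing is read from them.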

How the data were processed

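RNA from 9 epidermis libraries was sequenced, and genotypes were taken from the sample labels. The authors mapped reads to mm10 with TopHat 1.4.1 and deposited FPKM values per gene made with Cuffdiff 2.2.0; how Cuffdiff scaled libraries is not given in the sources used here. The deposited genotype means were not used. FPKM carries no counts, so no counting intervals are given.

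Genes averaging over 0.1 FPKM in at least 1 genotype (16897) were fitted on log2(FPKM + 1) with limma 3.58.1 in R 4.3.3, using 4 genotype means over all 9 libraries, eBayes with an intensity trend, and no covariate (5 residual degrees of freedom). P-values were adjusted by Benjamini-Hochberg over all genes tested. A call needed an adjusted p under 0.05 and a ratio of average FPKM over 2. The fit was tested on simulated data with changes placed only in genes averaging above 2 on the log2(FPKM + 1) scale. That test does not cover genes as low as Defb4, Defb6 and Lcn2. The p-values measure the spread between embryos, each sampled once. The paper describes a separate cross for each of KO, KH and DKO, and both parents of DKO embryos were Esrp2-/-. DKO embryos therefore had no WT, KO or KH littermates. Genotype cannot be told apart from cross, litter or maternal genotype in the comparisons with DKO.

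The 10 genes and the lists were chosen with earlier results of these data known. Named were all 10, each called gene of the lists, and for Slpi and Defb14 the 5 genes most like them over the libraries (averaging at least 1 FPKM in a genotype); for lists without a call, the ranges of their summed levels are given. Adm, Cxcr2, Prtn3, Csf3r, Retnlg, Agpat5, Lor, Krt10, Krt14, Xist and the genes listed at 0 were named for context after their values were seen. So were Dcn, Col3a1, Epcam, Muc1, Krt4, Krt8, Krt18, Krt19 and Krt20. Alternatives were a pseudocount of 0.1, no filter or one at 1 FPKM, 2 genotypes only, no trend, TPM, median ratio or quantile scaling, arrayWeights, the replicate block, no fold threshold, and leaving out each library. Loci came from GENCODE M21 and promoters from RefSeq (GRCm38.p6). Python 3.11.15, pandas 2.3.3, Biopython 1.88 and matplotlib 3.10.9 were used.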

Additional observations from a re-analysis of the deposited data

How the results depend on the processing

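Slpi and Defb6 met the call of DKO against WT under every alternative tried, and Lcn2 under all but the filter at 1 FPKM, which removed it; Lcn2 and Defb4 were tested only through DKO. Without a filter, without the intensity trend and with the replicate block the 3 genes Slpi, Defb6 and Lcn2 were called and Defb4 was not, and with only 2 genotypes fitted Defb4 was not called either. Defb14 was called against WT with only 2 genotypes and with arrayWeights. Against KO it was called with only 2 genotypes, as TPM, where the count was 5, and in some fits with 1 library left out. With the filter at 1 FPKM the count of the 10 genes called was 2 against WT, 2 against KO and 1 against KH. That filter removed Defb4 and Lcn2, and Defb6, still tested, lost its call against KH for a cause that was not tested. Against KH the count was 1 with only 2 genotypes fitted, 2 without the trend and 2 with the replicate block, and the cause was not tested. Leaving out 1 library at a time gave 3 to 4 called against WT, 3 to 5 against KO and 2 to 4 against KH, 2 to 4 of the other effectors and 0 to 1 of the sensing genes. Adm, lower in DKO (and in KO and KH) than in WT, joined the other effectors called with only 2 genotypes and with arrayWeights, which made 5. The sensing genes called were 2 with only 2 genotypes (Il1b and Il22ra1) and 3 with arrayWeights (Il1b, Tnf and Cxcl1), settings under which the calls over all genes rose from 123 to 350 and 556. The difference of Defb1, not called anywhere, was -0.066 as TPM and -0.002 with median ratio scaling, and ranged from -0.46 without DKO replicate 1 to 0.47 without DKO replicate 2. Replicate numbers did not pair the libraries: deviations of same-numbered libraries correlated between -0.567 and 0.468. The calls lost under the replicate block were Defb4 against WT, KO and KH, Defb6 against KH, and S100a9 against WT. For that reason these losses are not read as weaker differences. With 2 libraries in 3 of the genotypes, low FPKM and unknown counts limit every value near 0. Where 1 library of a genotype remained, its spread was taken to be that of the other genotypes.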

Other observations

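Slpi belongs to a family of whey acidic protein genes on chromosome 2, and the table holds 66 genes within 500 kb of it, of which 33 were tested. In 3 of these both DKO libraries were above the other 7, namely Slpi, Dbndd2 and Gm11458, where over all genes tested the share was 5.33%. Dbndd2 had 10.6 and 10.7 FPKM in DKO and 4.86 to 7.64 FPKM in the other libraries. Wfdc12, a relative of Slpi named here after its values were seen, had 17.9 FPKM in DKO replicate 1 but 2.78 FPKM in DKO replicate 2, within the 0.376 to 3.62 FPKM of the other 7 libraries. Wfdc5, another relative, had 71.3 and 35.6 FPKM in DKO and 35.4 to 107 FPKM elsewhere. Wfdc5 and Wfdc12 share a locus in the table, and how reads were split between them is uncertain.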
